A study of Mus musculus with 8 samples.

Results

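The Kank family comprises *Kank1*, *Kank2*, *Kank3* and *Kank4*, which encode scaffold proteins of the cell cortex. These 4 genes, of 49585 counted on the C57BL/6J genome, are the rows whose identifiers belong to the family. The family was selected on the measured difference of *Kank1* between the doses, 50 ppm against 0 ppm, and for its members that contrast is therefore given as a description, with no p-value, and calls of members are counted beside the share of all genes called without being read as evidence. Messenger RNA was sequenced from the whole brain of 8 newborn (postnatal day 1) female mice to ask how cadmium (Cd) reaching the mother alters gene expression in the brain of her pups. All pups were B × C hybrids, born to a C57BL/6J (B) mother and a CAST/EiJ (C) father, and each came from a different litter. The 4 F1 0 ppm pups had dams that drank water without Cd, and the 4 F1 50 ppm pups had dams that drank water with 50 ppm Cd, given as CdCl2, before and throughout pregnancy. The pups were exposed through the dam, and a whole brain mixes every cell type of the organ. Total counts on the B genome lay between 22916434 and 30708087 per brain. Levels are given as CPM, the reads of a gene scaled to a common normalized library size.

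KANK proteins carry a short motif that binds talin, the protein that couples integrins to actin, followed by coiled coils and ankyrin repeats. At the rim of focal adhesions they recruit the cortical microtubule stabilizing complex, which holds liprins, ELKS proteins, LL5 proteins, CLASPs and the kinesin KIF21A, and so bring microtubules next to integrin adhesions. KANK1 also restrains RhoA and Rac signaling to actin, and loss of the human gene has been linked to a familial form of cerebral palsy, while KANK2 is known from mesenchymal cells, KANK3 from endothelium and KANK4 from kidney podocytes.

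The tissue label was checked against neuronal markers. Of 7 neuronal genes, 6 were counted in every brain, and their summed level lay between 5640 CPM in F1 0 ppm brain 2 and 6507 CPM in F1 0 ppm brain 1. *Dcx*, which encodes the microtubule-binding doublecortin of young neurons, had the most reads of them. *Tubb3*, a neuronal tubulin gene, was listed at 0 in all 8 brains, as was *Sox2*, a transcription factor gene of radial glia, so that a 0 in this table cannot be read as absence of the RNA.

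The region around each start site is shown because the dams received a metal and the letters of the metal response element, the motif bound by the metal-sensing factor MTF1, can be looked for there. All 4 genes matched a RefSeq promoter entry (GRCm38.p6), each covering 250 bases before and 50 bases after the annotated start, and the capitals mark matches to TGCACNC or TGCGCNC on either strand.
*Kank1* (chr19:25236725-25237024, + strand): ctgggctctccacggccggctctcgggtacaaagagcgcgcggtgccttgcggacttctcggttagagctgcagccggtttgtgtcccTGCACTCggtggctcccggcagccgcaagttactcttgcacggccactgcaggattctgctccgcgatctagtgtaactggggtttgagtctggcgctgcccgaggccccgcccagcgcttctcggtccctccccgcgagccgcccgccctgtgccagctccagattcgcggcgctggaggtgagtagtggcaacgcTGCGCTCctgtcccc
*Kank2* (chr9:21798497-21798796, - strand): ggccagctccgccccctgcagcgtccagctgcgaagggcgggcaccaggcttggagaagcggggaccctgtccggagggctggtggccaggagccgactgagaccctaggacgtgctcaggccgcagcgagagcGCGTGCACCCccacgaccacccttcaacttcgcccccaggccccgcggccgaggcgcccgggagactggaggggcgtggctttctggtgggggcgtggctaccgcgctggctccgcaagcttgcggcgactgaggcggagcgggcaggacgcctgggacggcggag
*Kank3* (chr17:33810273-33810572, + strand): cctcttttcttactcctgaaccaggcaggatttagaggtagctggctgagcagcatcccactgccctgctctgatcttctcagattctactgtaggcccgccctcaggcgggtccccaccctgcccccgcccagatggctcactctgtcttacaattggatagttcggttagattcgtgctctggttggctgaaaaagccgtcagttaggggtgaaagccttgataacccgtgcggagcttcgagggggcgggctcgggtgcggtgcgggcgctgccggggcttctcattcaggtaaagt
*Kank4* (chr4:98817488-98817787, - strand): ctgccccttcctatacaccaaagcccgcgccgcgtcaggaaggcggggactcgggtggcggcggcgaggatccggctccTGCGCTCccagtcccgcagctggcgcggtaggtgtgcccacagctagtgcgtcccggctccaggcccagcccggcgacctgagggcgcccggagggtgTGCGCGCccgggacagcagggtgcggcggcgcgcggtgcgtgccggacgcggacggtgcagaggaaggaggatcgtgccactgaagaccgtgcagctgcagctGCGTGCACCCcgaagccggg
The motif was found 2 times in the *Kank1* window, 2 times in that of *Kank2*, 0 times in that of *Kank3* and 4 times in that of *Kank4*. In *Kank2* and in the last stretch of capitals of *Kank4*, a pair of matches on opposite strands overlap. Among 32851 promoters of this length, 25.7% held at least 1 match, so 3 of 4 family members carried letters that many promoters carry. The *Kank4* window held the most matches and the most CG dinucleotides, 38, against 29 in *Kank1*, 31 in *Kank2* and 15 in *Kank3*. Of the 4 windows, that of *Kank3* had the lowest share of G and C, 58.3%, against 67.3% in *Kank1* and 74.0% in both others, where the median promoter had 52.7%. The GC box letters GGGCGG, counted on both strands, occurred 3 times in *Kank1*, 2 times in *Kank2*, 3 times in *Kank3* and 0 times in *Kank4*, and 35.7% of promoters held them. These matches are a description of the letters in each window, and binding was not measured. The RefSeq start of *Kank2* lies 198 bp inside the outermost start of the gene in the GENCODE annotation, and that of *Kank3* 4 bp inside, while those of *Kank1* and *Kank4* coincide with it.

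The 4 genes lie on 4 chromosomes and differ in size. *Kank1* (ENSMUSG00000032702, chr19:25236975-25434496, + strand) spans 197522 bp with 6166 bp of merged exons and a longest coding sequence of 4080 bp. *Kank2* (ENSMUSG00000032194, chr9:21766784-21798744, - strand) spans 31961 bp with 5235 bp of exons and 2529 bp of coding sequence. *Kank3* (ENSMUSG00000042099, chr17:33810519-33822918, + strand) is the shortest, with 12400 bp, 3260 bp of exons and 2373 bp of coding sequence. *Kank4* (ENSMUSG00000035407, chr4:98754898-98817537, - strand) spans 62640 bp with 4795 bp of exons and 3048 bp of coding sequence. The exons of *Kank1*, *Kank2* and *Kank4* overlap no other gene on either strand in the annotation used. Of the *Kank3* exons, 2.70% overlap the ribosomal protein gene *Rps28* on the opposite strand, and since the strand setting of the counting is not given in the sources used here, the *Kank3* level is uncertain. The overlap is a share of exon length, and the share of reads it could add or remove was not measured.

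*Kank1*, the founding member and the regulator of RhoA and Rac signaling, had a higher level in CPM in the exposed brains. It was counted 410, 488, 538 and 430 times in F1 0 ppm brains 1 to 4 and 704, 626, 625 and 531 times in F1 50 ppm brains 1 to 4. Its level was 14.0, 18.2, 17.6 and 16.6 CPM in the F1 0 ppm brains, and 24.7, 22.0, 22.3 and 23.4 CPM in the F1 50 ppm brains. Every exposed brain lay above every control brain, with the lowest exposed brain at 22.0 CPM and the highest control brain at 18.2 CPM, and F1 0 ppm brain 1 was the lowest of all. The mean was 16.6 ± 1.84 CPM (SD, n = 4) in control brains and 23.1 ± 1.23 CPM (SD, n = 4) in exposed brains. This corresponds to a log2 fold change of 0.48 (SE 0.10), or a level 1.39-fold higher, the difference that chose the family. In a whole brain, more cells of a type that expresses *Kank1* and more *Kank1* RNA per cell cannot be told apart.

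**Figure D1:**
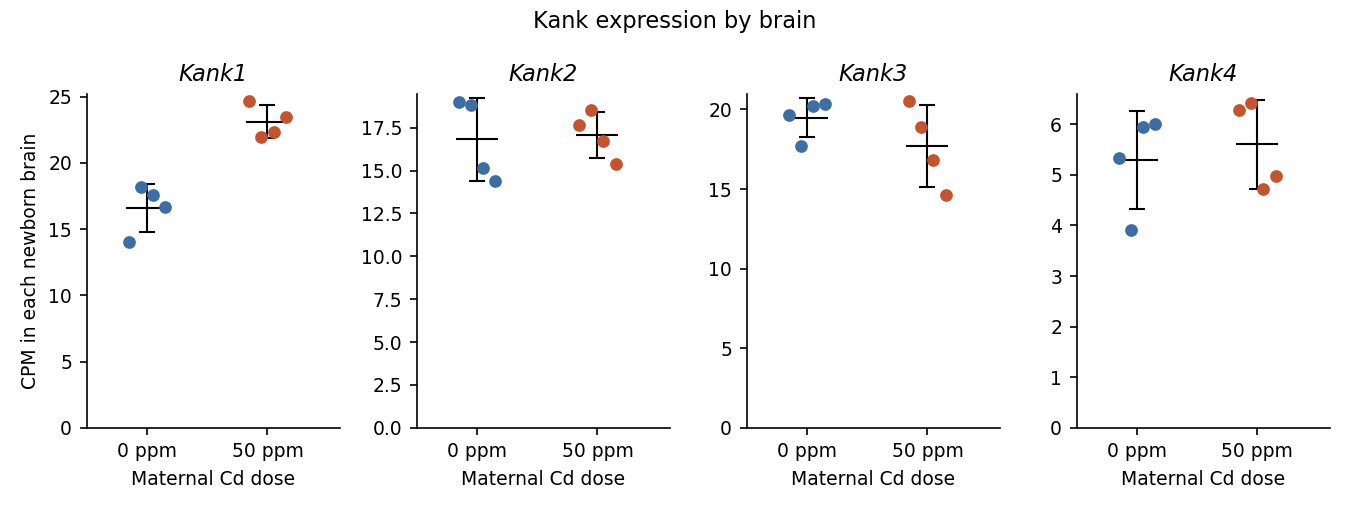
*Kank* expression in each newborn brain in CPM (vertical axes from 0, a separate scale per gene) by maternal Cd dose. Points are single brains, in order of brain number from left to right, and bars give the mean ± SD of 4 brains. For *Kank1* the exposed brains lie between 22.0 and 24.7 CPM, above the control brains at 14.0 to 18.2 CPM, while for the other 3 genes the doses overlap.

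The same brains were also aligned to the CAST/EiJ genome, the genome of the father. There *Kank1* was counted 399, 473, 535 and 417 times in the F1 0 ppm brains and 689, 620, 608 and 522 times in the F1 50 ppm brains. Per brain these are between 96.9% and 99.4% of the counts on the B genome, so the choice of parental genome moved *Kank1* by few reads. In CPM it measured 15.2, 19.7, 19.7 and 18.1 in the F1 0 ppm brains and 27.4, 24.5, 24.5 and 26.1 in the F1 50 ppm brains. In CPM every exposed brain again lay above every control brain, while the raw counts overlapped, and the log2 fold change was 0.49 (SE 0.10). Both alignments come from the same reads and are not separate evidence. For *Kank2*, *Kank3* and *Kank4* no identifier of the CAST/EiJ table was paired with the gene, and they are not used here.

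*Kank2*, whose protein activates talin at adhesions and also holds steroid receptor coactivators in the cytoplasm, had nearly the same mean at both doses. Its level was 19.0, 18.8, 15.1 and 14.4 CPM in the F1 0 ppm brains and 17.7, 18.5, 16.7 and 15.4 CPM in the F1 50 ppm brains. The exposed brains all fell within the range of the control brains, which split into a higher pair, brains 1 and 2, and a lower pair, brains 3 and 4. The means were 16.8 ± 2.42 CPM (SD, n = 4) and 17.1 ± 1.33 CPM (SD, n = 4), with a log2 fold change of 0.02 (SE 0.11). Its sign depended on single brains, turning negative without F1 0 ppm brain 3 (-0.03), F1 0 ppm brain 4 (-0.04) or F1 50 ppm brain 2 (-0.02).

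*Kank3*, the member known from vascular endothelium, measured 19.6, 17.7, 20.2 and 20.3 CPM in the F1 0 ppm brains and 20.6, 18.9, 16.8 and 14.6 CPM in the F1 50 ppm brains. The exposed group held both the highest brain, brain 1, and the lowest, brain 4. The means were 19.5 ± 1.22 CPM (SD, n = 4) and 17.7 ± 2.59 CPM (SD, n = 4), with a log2 fold change of -0.13 (SE 0.11). Leaving out F1 50 ppm brain 4 brought the difference to -0.05, and leaving out F1 50 ppm brain 1 brought it to -0.21.

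Endothelial markers were all 10 counted, with *Cldn5*, a tight junction gene, having the most reads. Their sum was 292, 247, 294 and 263 CPM in the F1 0 ppm brains and 268, 261, 321 and 315 CPM in the F1 50 ppm brains. F1 50 ppm brains 3 and 4 thus had the highest endothelial sums and the lowest *Kank3* levels of the 8 brains. None of the 10 endothelial genes passed an adjusted p of 0.05 in edgeR or in DESeq2, and 0 had an unadjusted p under 0.05. The part of endothelial RNA in the *Kank3* level was not tested.

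*Kank4*, the member known from podocytes, was counted between 105 and 183 times per brain, the fewest reads of the family. Its level was 5.33, 3.91, 5.94 and 6.00 CPM in the F1 0 ppm brains and 6.28, 6.43, 4.71 and 4.98 CPM in the F1 50 ppm brains. In both groups the brains were spread by more than the groups were apart, with F1 0 ppm brain 2 the lowest. The means were 5.29 ± 0.97 CPM (SD, n = 4) and 5.60 ± 0.88 CPM (SD, n = 4), with a log2 fold change of 0.08 (SE 0.17). The sign turned negative without F1 0 ppm brain 2 (-0.04).

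**Figure D2:**
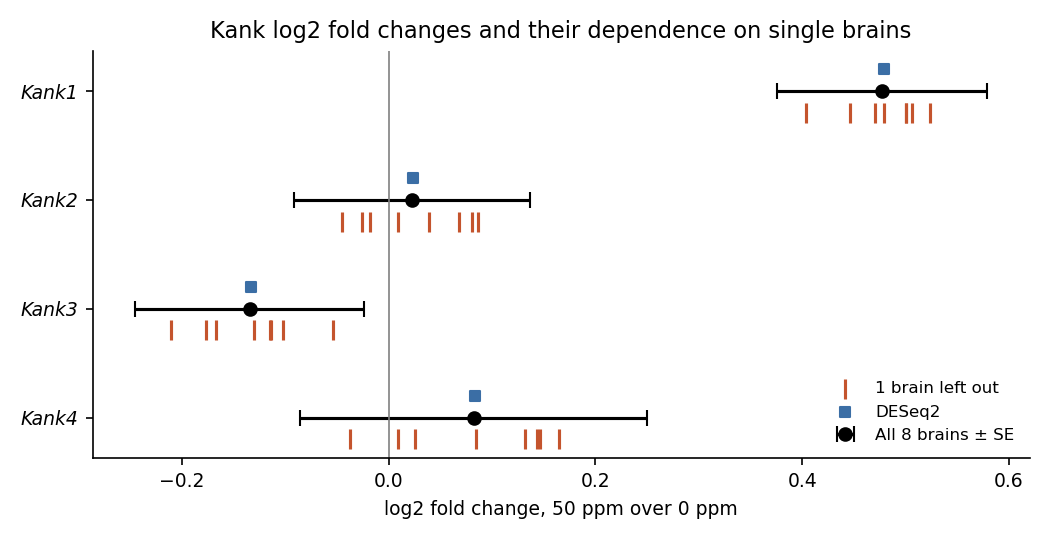
Log2 fold change (horizontal axis, 50 ppm over 0 ppm) of the 4 *Kank* genes. Black points and bars give the estimate ± SE over 8 brains, orange ticks the estimates with 1 brain left out at a time, and blue squares those of DESeq2. *Kank1* stays between 0.40 and 0.52 with any brain left out, while *Kank2* and *Kank4* lie on both sides of 0 and *Kank3* between -0.21 and -0.05.

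All 4 genes passed the filter on low counts, as did 23113 genes in all. At an adjusted p of 0.05 in edgeR's quasi-likelihood fit, 0 of 4 members were called, where 0.0173% of the genes tested, 4 of 23113, were. In DESeq2 1 of 4 members, *Kank1*, was called, where 0.131% of 16839 genes with an adjusted p were, and 1 of 4, again *Kank1*, was called by edgeR without the filter, where 0.192% of 27077 genes were. By separation of the groups, 1 of 4 members had all exposed brains above all control brains, where 1.19% of the genes tested did. On the C genome, where *Kank1* was the 1 member looked up, it was not called by edgeR, where 0.0101% of 19847 genes were, and was called by DESeq2, where 0.131% of 15998 genes with an adjusted p were. As this contrast chose the family, nothing is read from these counts. The 4 genes called by edgeR were *Hoxb6*, *Hoxb7*, *Hoxb8* and *Bcas1*, the first 3 of them named here because the count is small, after their values were seen. That count was 2 without F1 0 ppm brain 1, F1 0 ppm brain 2 or F1 50 ppm brain 4, 8 without F1 50 ppm brain 3, and 20 without F1 0 ppm brain 3, and with any 1 of the 8 brains left out 0 of the 4 *Kank* genes were called by edgeR.

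Levels were compared between the 4 genes per kilobase of exon. The choice of members did not use the order of the genes, although the *Kank1* level in each brain carries the dose contrast that it did use. *Kank3* was the most abundant at 5.97 ± 0.37 CPM per kilobase (SD, n = 4) in control brains and 5.44 ± 0.79 (SD, n = 4) in exposed brains. *Kank2* had 3.21 ± 0.46 (SD, n = 4) and 3.26 ± 0.25 CPM per kilobase (SD, n = 4), and *Kank1* 2.69 ± 0.30 (SD, n = 4) and 3.75 ± 0.20 (SD, n = 4). *Kank4* was the least abundant at 1.10 ± 0.20 (SD, n = 4) and 1.17 ± 0.18 CPM per kilobase (SD, n = 4). The test planned for neighbours in this order is not used, since 2 of its 3 pairs hold *Kank1* and the ranking of the same brains formed the pairs. In its place, after the data were seen, all 3 pairs of *Kank2*, *Kank3* and *Kank4* were tested with a two-sided exact sign-flip permutation test over the brains. On the log2 scale *Kank3* exceeded *Kank2* by 0.82 ± 0.22 (SD over brains) and *Kank4* by 2.34 ± 0.20, and *Kank2* exceeded *Kank4* by 1.52 ± 0.32, each in 8 of 8 brains, with an exact permutation p = 0.0078 for each, the smallest the test can give, and an adjusted p of 0.0078 over the 3 pairs. *Kank1* is placed without a test. It lay above *Kank4* in 8 of 8 brains, by 1.50 ± 0.36, and for *Kank2* and *Kank1* the order was not settled. Over all 8 brains *Kank2* minus *Kank1* was 0.03 ± 0.33, with *Kank2* higher in 4 of 8. This difference turned to -0.05 with the longest transcript as gene length, to -0.07 without F1 0 ppm brain 1 and to -0.01 without F1 0 ppm brain 2. The rank of *Kank3* carries the limit named for its overlap with *Rps28*. An error in gene length or in mapping would be shared by all 8 brains. The p-values therefore show only that the order of the measured levels was the same from brain to brain.

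**Figure D3:**
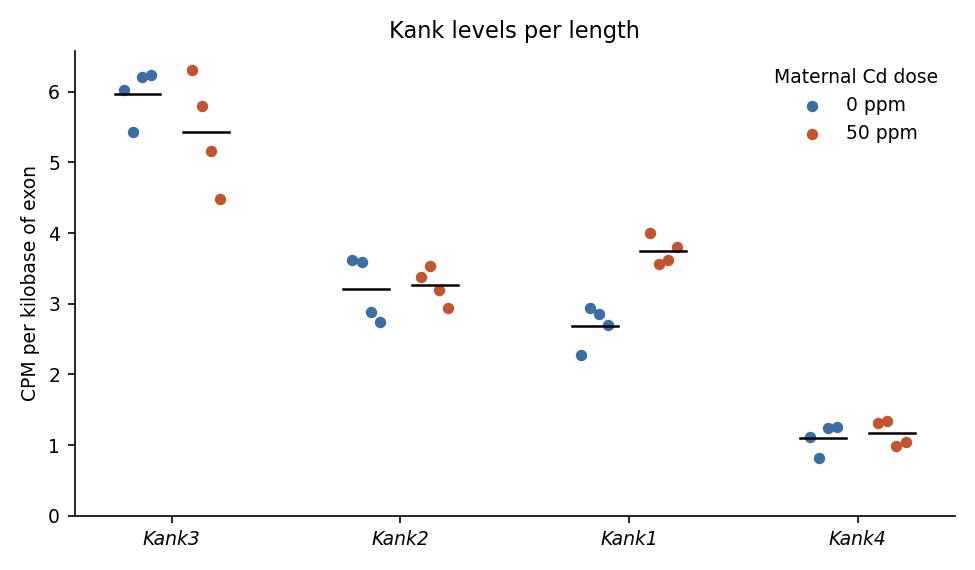
*Kank* levels per length (vertical axis, CPM per kilobase of merged exon, from 0), in order of the mean over 8 brains. Points are single brains, colored by maternal Cd dose, and lines are means of 4 brains. *Kank3* lies above the others in every brain and *Kank4* below them, and *Kank1* passes from below *Kank2* on average at 0 ppm (2.69 against 3.21) to above it at 50 ppm (3.75 against 3.26).

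Within each brain, the *Kank1* level per length divided by that of *Kank2* gives a value that does not depend on library size. It was 0.63, 0.82, 0.99 and 0.98 in the F1 0 ppm brains and 1.19, 1.01, 1.13 and 1.29 in the F1 50 ppm brains. With the longest transcript of each gene as its length, the ratio was 0.66, 0.86, 1.04 and 1.04 in the F1 0 ppm brains and 1.25, 1.06, 1.19 and 1.36 in the F1 50 ppm brains. So *Kank1* was above *Kank2* in all 4 exposed brains with either length and below it in F1 0 ppm brains 1 and 2, while in F1 0 ppm brains 3 and 4 the side depended on the length used. With merged exons the mean ratio was 0.85 ± 0.17 (SD, n = 4) in control brains and 1.15 ± 0.12 (SD, n = 4) in exposed brains. The share of *Kank1* in the level per length of the whole family was 20.7 ± 2.38% (SD, n = 4) in control brains and 27.7 ± 2.52% (SD, n = 4) in exposed brains, again without overlap, since the highest control brain had 23.0% and the lowest exposed brain 25.0%. These ratios use the contrast that chose the family and were not tested.

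The 4 genes did not vary together from brain to brain as a group. Over the deviations of the 8 brains from their dose means (log2 CPM), *Kank3* and *Kank4* had a Pearson r of 0.77 and a Spearman rank correlation of 0.79. The other 5 pairs had r between -0.31, for *Kank1* and *Kank2*, and 0.13, for *Kank2* and *Kank3*. The brains share their library depth and dissection across genes, so these are descriptions over 8 brains. Among 14581 genes with a mean of at least 1 CPM, those most like *Kank1* were *Ano6* (r = 0.98, rank correlation 0.98), a phospholipid scramblase gene, *Npepl1* (r = 0.96, rank correlation 0.95), *Ebf1* (r = 0.96, rank correlation 0.95), a transcription factor gene, *Cbln1* (r = 0.96, rank correlation 0.90), a synaptic organizer gene of the cerebellum, and *Rps4l* (r = 0.95, rank correlation 0.90). Most like *Kank2* were *Erf*, *Agap3*, *Tmem106c*, *Adh5* and *Hnrnpm*, with r between 0.96 and 0.98. Most like *Kank3* were *AI413582*, *Ncaph2*, *2410015M20Rik*, *Abcd4* and *Uckl1*, with r between 0.98 and 0.99, and among those most like *Kank4* were *Ndrg4*, *Sema4a*, *Apeh* and *Cdk5*, with r between 0.98 and 0.99. With so many genes and 8 brains, r of this size is reached for each of the 4 genes, and it names the nearest patterns only. By rank correlation, ties made the lists longer than 5, with 7, 11, 40 and 16 genes for *Kank1* to *Kank4*, and these held 3, 3, 3 and 1 of the 5 genes found by Pearson r. The shared genes are thus 3 of 5 and 3 of 7 for *Kank1*, and 3 of 5 and 3 of 40 for *Kank3*.

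The partners of KANK proteins were taken as a list of 37 genes, all of which were measured and passed the filter. Of the 37, 0 passed an adjusted p of 0.05 in edgeR, 0 did in DESeq2, and 1, *Arhgef2*, had an unadjusted p under 0.05, or 2.70%, where 3.75% of all genes tested did in either direction, and 1.44% with a lower level, as for this gene. That count of 1 became 0 without F1 0 ppm brains 2 or 4 or F1 50 ppm brains 2, 3 or 4, each left out alone, 0 with at least 10 counts in 4 libraries, 2 without F1 50 ppm brain 1 and 3 without F1 0 ppm brain 3. Their log2 fold changes were positive for 19 genes and negative for 18, with a median of 0.00 as over all 23113 genes (0.00), and 35 of 37 lay within 0.15 of 0. The median of their SEs was 0.07, below the 0.10 of *Kank1*.

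Talin and integrin adhesion genes, where the KANK proteins dock, had a median log2 fold change of 0.04, with 8 of 12 positive, and 0 of 12 had an unadjusted p under 0.05. *Tln1*, the talin gene of most tissues, measured 62.8, 58.8, 57.6 and 59.4 CPM in the F1 0 ppm brains and 64.7, 60.9, 60.2 and 58.3 CPM in the F1 50 ppm brains (log2 fold change 0.03, SE 0.07). *Tln2*, the talin gene abundant in brain, measured 136, 109, 126 and 128 CPM in the control brains and 137, 135, 132 and 136 CPM in the exposed brains (0.12, SE 0.07). F1 0 ppm brain 2 alone lay well below the rest for *Tln2*, and otherwise the doses overlapped for both talins. *Itgb1*, the integrin subunit gene with the most reads in this list, was at 0.13 (SE 0.07), the most positive of the 12.

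Genes of the cortical microtubule complex, which KANK proteins recruit, had a median of 0.01, with 6 of 10 positive and 0 of 10 with an unadjusted p under 0.05. *Ppfibp1*, which encodes the liprin that binds KANK1, was at -0.02 (SE 0.10), and *Kif21a*, which encodes the kinesin that binds its ankyrin repeats, at -0.03 (SE 0.07). *Ppfibp2*, a related liprin gene with 84 to 113 counts per brain, was at 0.19 (SE 0.16), the most positive of the list. *Clasp2*, a gene of microtubule plus-end proteins and the gene with the most reads of the 10, was at 0.03 (SE 0.07).

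In the RhoA, Rac and actin list, through which KANK proteins act on contractility, 3 of 11 genes were positive and 8 negative, with a median of -0.04. *Arhgef2*, the gene of GEF-H1, a RhoA activator held on microtubules and released when KANK proteins lose their hold on adhesions, measured 106, 102, 81.8 and 95.9 CPM in the F1 0 ppm brains and 98.8, 82.3, 76.6 and 74.8 CPM in the F1 50 ppm brains. The groups overlapped, with F1 0 ppm brain 3 among the exposed brains and F1 50 ppm brain 1 among the controls. Its log2 fold change was -0.21 (SE 0.10), with an unadjusted p = 0.037 and an adjusted p = 0.999 in edgeR. *Baiap2*, which encodes the Rac effector IRSp53 bound by KANK1, was at -0.01 (SE 0.10), and *Rhoa* at 0.03 (SE 0.07). The nuclear partners, *Ctnnb1*, *Ncoa1*, *Ncoa2* and *Ncoa3*, lay between -0.06 and 0.06, and 0 of 4 had an unadjusted p under 0.05.

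**Figure D4:**
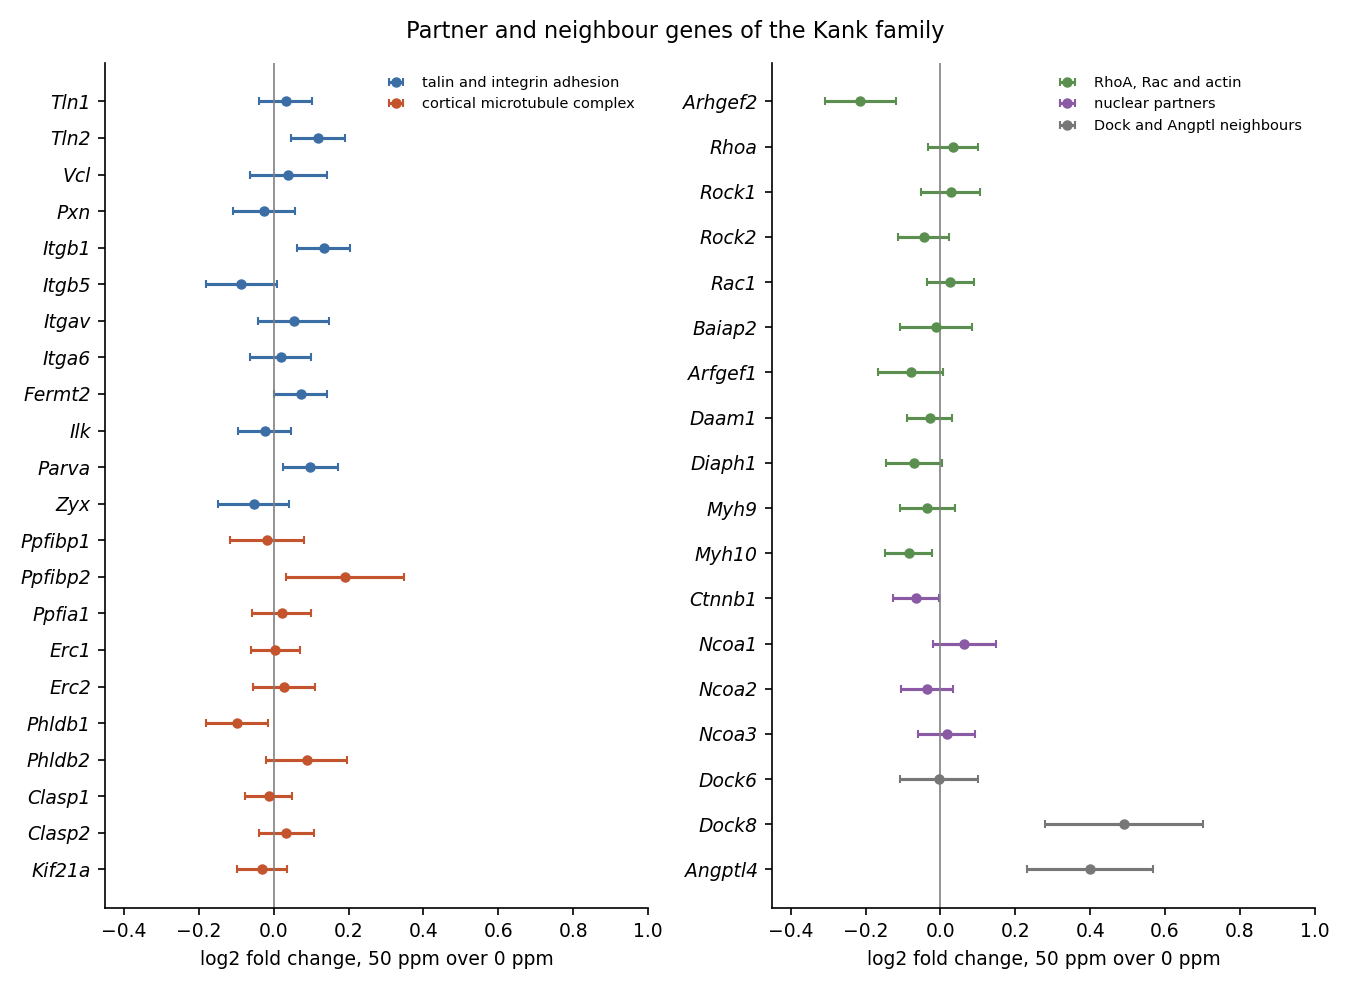
Log2 fold change (horizontal axis, 50 ppm over 0 ppm) ± SE of 37 partner genes by list and of 3 measured *Dock* and *Angptl* genes near *Kank* genes. The gray line marks 0. Partner genes lie between -0.21 (*Arhgef2*) and 0.19 (*Ppfibp2*), and *Dock8* and *Angptl4* at 0.49 and 0.40.

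*Kank1*, *Kank2* and *Kank3* share a setting in the genome, since each lies near a *Dock* gene, an *Angptl* gene or both. *Dock* genes encode exchange factors for small GTPases, and *Angptl* genes encode secreted regulators of lipoprotein lipase. *Kank1* lies 34.5 kb from *Dock8*, *Kank2* lies 1.12 kb from *Dock6* and 36.8 kb from *Angptl8*, and *Kank3* lies 28.7 kb from *Angptl4*. Together with the nearest protein-coding gene on either side of each *Kank* gene this makes 9 neighbours, of which 7 passed the filter. *Angptl8* and *I0C0044D17Rik*, the latter beside *Kank4*, were listed at 0 in all 8 brains. Of the 7, 0 were called by edgeR and 0 by DESeq2, and 2, *Dock8* and *Angptl4*, had an unadjusted p under 0.05, both higher, as did 2.31% of all genes tested. That count of 2 became 0 without F1 0 ppm brains 2 or 3 or F1 50 ppm brain 4, each left out alone, and 1 without F1 50 ppm brains 1, 2 or 3.

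*Dock8*, the neighbour of *Kank1* on the side of its promoter, was counted between 48 and 100 times per brain. It measured 3.17, 2.19, 1.57 and 3.21 CPM in the F1 0 ppm brains and 3.51, 3.37, 3.57 and 3.79 CPM in the F1 50 ppm brains. As for *Kank1*, every exposed brain lay above every control brain, by a small margin over F1 0 ppm brains 1 and 4. The means were 2.54 ± 0.80 CPM (SD, n = 4) and 3.56 ± 0.18 CPM (SD, n = 4). The log2 fold change was 0.49 (SE 0.21), with an unadjusted p = 0.032 and an adjusted p = 0.999 in edgeR, so it did not pass the test. On the other side of *Kank1*, the testis gene *Dmrt1* was at or under 0.12 CPM in all brains. It was counted 3, 2, 3 and 3 times in the F1 0 ppm brains and 1, 0, 1 and 1 times in the F1 50 ppm brains. Every exposed brain thus lay below every control brain, but all were at or under 3 counts (0.10 to 0.13 CPM). The log2 fold change was -1.65 (SE 0.85), with an unadjusted p = 0.067 in edgeR.

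*Angptl4*, next to *Kank3*, measured 14.9, 9.82, 7.94 and 14.0 CPM in the F1 0 ppm brains and 17.3, 16.6, 12.5 and 15.2 CPM in the F1 50 ppm brains. F1 50 ppm brain 3 lay among the control brains. Its log2 fold change was 0.40 (SE 0.17), with an unadjusted p = 0.029 and an adjusted p = 0.999 in edgeR, while that of *Kank3* was negative. *Ndufa7*, a respiratory chain gene on the other side of *Kank3*, was at -0.05 (SE 0.08). The neighbours of *Kank2* showed no difference beyond their error, with *Dock6* at 0.00 (SE 0.10) and *Spc24*, a kinetochore gene, at -0.10 (SE 0.19). *L1td1*, on the other side of *Kank4*, was at -0.51 (SE 0.70) with at most 0.26 CPM in any brain.

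Marker genes of cell types were set beside *Kank1*. The lists were chosen with earlier results of these data known, so the counts and shares given for them are descriptions. Their counts stand beside those over all genes tested, of which 11318 of 23113 (49.0%) had a positive log2 fold change, 2.31% had an unadjusted p under 0.05 with a higher level and 1.44% with a lower level, 0.0173% were called by edgeR and 0.131% of those with an adjusted p by DESeq2. Of 13 oligodendrocyte genes, 11 had a positive log2 fold change, 9 had an unadjusted p under 0.05, 5 were called by DESeq2 and 1, *Bcas1*, a gene of newly formed oligodendrocytes, was called by edgeR (0.97, SE 0.15, adjusted p = 0.038). Their sum was 145, 132, 171 and 162 CPM in the F1 0 ppm brains and 232, 244, 174 and 259 CPM in the F1 50 ppm brains, and *Mbp*, a myelin gene, had the most reads. As for *Kank1*, every exposed brain lay above every control brain, with F1 50 ppm brain 3 (174 CPM) just above F1 0 ppm brain 3 (171 CPM). Some of the 13 genes had few reads. *Opalin* was at or near 0 in all brains, with 0.00 to 0.09 CPM, and *Mog* measured 0.11 to 0.38 CPM (log2 fold change -0.11, SE 0.53). *Mobp*, among the 9 with an unadjusted p under 0.05, was at 0 in F1 0 ppm brains 1 and 2 and reached 1.94 CPM in F1 50 ppm brain 4 (3.07, SE 0.73). The oligodendrocyte progenitor genes had a median of 0.10 over 8 genes and a sum of 378 ± 16.7 CPM (SD, n = 4) in control brains and 393 ± 24.5 CPM (SD, n = 4) in exposed brains, and *Pdgfra* had the most reads, and 0 of 8 had an unadjusted p under 0.05 in edgeR or were called by edgeR or DESeq2.

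Astrocyte genes were positive for 9 of 9, with 5 at an unadjusted p under 0.05 and 0 called by edgeR or DESeq2. Their sum was 1130, 940, 1190 and 1047 CPM in the F1 0 ppm brains and 1292, 1291, 1192 and 1435 CPM in the F1 50 ppm brains, and *Slc1a3*, a glutamate transporter gene, had the most reads. The astrocyte sum, too, separated the doses as *Kank1* did, with F1 50 ppm brain 3 (1192 CPM) just above F1 0 ppm brain 3 (1190 CPM). Mural cell genes, of pericytes and vascular smooth muscle, were positive for 10 of 10 with a median of 0.29, and 3 had an unadjusted p under 0.05 and 0 were called by edgeR or DESeq2. Their sum was 304 ± 28.3 CPM (SD, n = 4) in control brains and 356 ± 31.5 CPM (SD, n = 4) in exposed brains, with overlap, and *Rgs5* had the most reads. The part of these cell types in the *Kank1* level was not tested.

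Genes that mark the hindbrain and spinal cord differed widely between brains of the control group. The summed level of these 10 *Hox* genes was 0.03, 0.63, 18.0 and 31.6 CPM in the F1 0 ppm brains and 110, 40.0, 23.6 and 31.0 CPM in the F1 50 ppm brains. F1 0 ppm brains 1 and 2 were near 0, and F1 50 ppm brain 1 was the highest. All 7 that were tested had a positive log2 fold change and an unadjusted p under 0.05, 0 were called by edgeR or DESeq2, *Hoxb5* had the most reads, and *Hoxa3*, *Hoxa4* and *Hoxd4* were listed at 0. The list does not hold *Hoxb6*, *Hoxb7* and *Hoxb8*, which edgeR called. F1 0 ppm brain 1 had the lowest sum of the list and the lowest *Kank1* level (14.0 CPM), and F1 50 ppm brain 1 had the highest of both (24.7 CPM for *Kank1*), while the doses overlapped in the sum. In F1 0 ppm brains 2, 3 and 4 the sums were 0.63, 18.0 and 31.6 CPM. *Kank1* there was at 18.2, 17.6 and 16.6 CPM, in the opposite order. In F1 50 ppm brains 2, 3 and 4 the sums were 40.0, 23.6 and 31.0 CPM. *Kank1* in those brains was at 22.0, 22.3 and 23.4 CPM. Without F1 0 ppm brain 1 the *Kank1* log2 fold change was 0.40, and without F1 0 ppm brain 2 it was 0.52. Forebrain genes, among which *Neurod6* had the most reads, were negative for 8 of 9, 5 with an unadjusted p under 0.05, 0 called by edgeR and 1, *Dlx1*, by DESeq2, and their sum was 922, 884, 527 and 668 CPM in the control brains and 617, 654, 751 and 666 CPM in the exposed brains. The part of regional composition in the *Kank1* level was not tested.

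**Figure D5:**
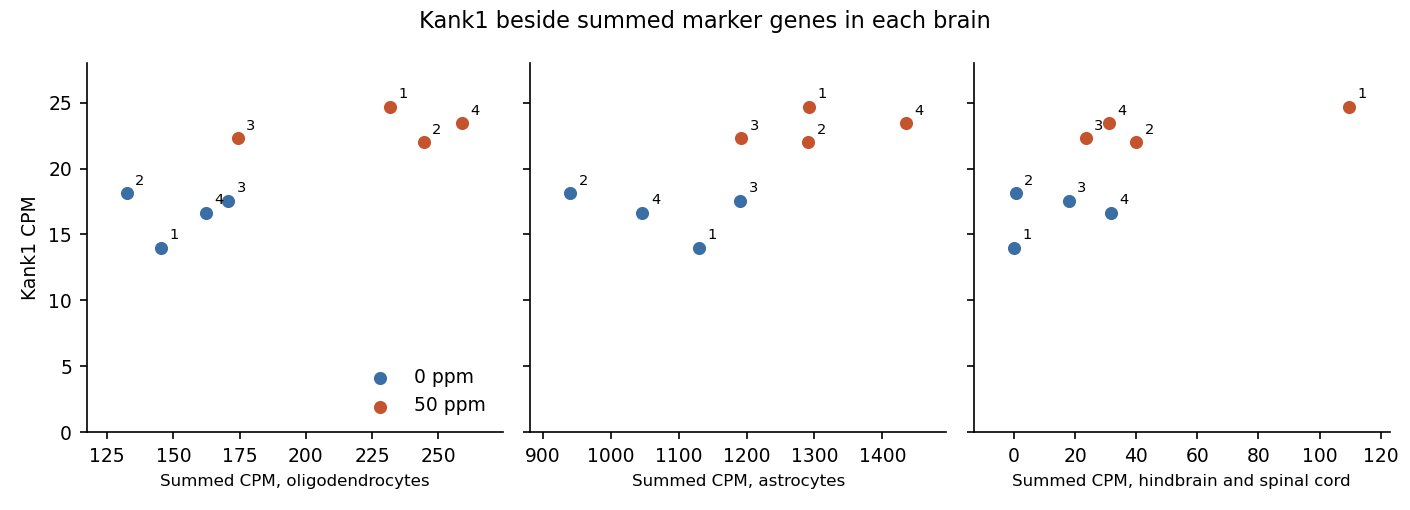
*Kank1* level (vertical axis, CPM, from 0) against the summed CPM of oligodendrocyte, astrocyte, and hindbrain and spinal cord genes (horizontal axes, not from 0). Each point is a brain, labelled with its number and colored by dose. The oligodendrocyte and astrocyte sums separate the doses, as *Kank1* does, by a small margin between brain 3 of each dose (174 and 171 CPM, 1192 and 1190 CPM), and the hindbrain and spinal cord sum does not.

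The other cell type lists held no gene that passed the adjusted threshold in edgeR or DESeq2. The median was 0.01 for radial glia, with 1 of 5 tested, lower in exposed brains, at an unadjusted p under 0.05. It was 0.13 for meninges, with 2 of 8, both higher, and 0.09 for microglia, with 3 of 7, all higher. The medians were -0.21 for choroid plexus, -0.14 for red blood cells and 0.04 for neurons, with 0 genes at an unadjusted p under 0.05 in each. Over all 104 marker genes tested, 77 had a positive log2 fold change, 35 (33.7%) had an unadjusted p under 0.05, where 3.75% of all genes did, and 29 of these were higher and 6 lower. As the lists were chosen with earlier results of these data known, the larger share is not independent evidence. With 1 brain left out at a time that count of 35 lay between 26 and 44. By edgeR, 1 of the 104 was called and, by DESeq2, 6. These 6, *Bcas1*, *Enpp6*, *Mag*, *Mbp*, *Cnp* and *Dlx1*, are also among the genes that the study itself reports as differing in the same brains. The edgeR count was 0 without F1 0 ppm brains 1, 2 or 4 or F1 50 ppm brains 1, 2 or 4, each left out alone, and 5 without F1 0 ppm brain 3 or F1 50 ppm brain 3.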

How the data were processed

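The 2 tables deposited for these 8 whole brains hold raw counts of reads for every gene, made by the authors with STAR and HTSeq on the B (GRCm38) and on the C genome, with no normalization. Library kits kept strand, but the strand setting of the counting, the mapping quality minimum and the tool versions are not given in the sources used here. A gene at 0 in over 66.67% of the libraries was not tested, a rule the study describes. Applied here, it kept 23113 of 49585 for B and 19847 of 37192 for C. The study reports far fewer genes on each genome after its quality control, so the set of genes tested here is not the study's, and the reason was not tested. Libraries were normalized by TMM in edgeR 4.0.16 (R 4.3.3), doses were compared with its quasi-likelihood test in a model of dose alone, with Benjamini-Hochberg adjusted p-values across every gene tested (threshold 0.05). DESeq2 1.42.0, its size factors in edgeR, no filter, at least 10 counts in 4 libraries, the C genome and leaving out each library were alternatives. The C identifier of *Kank1* was paired through a supplementary table of the study.

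Total counts were 29704044, 26741649, 30708087 and 25765997 in F1 0 ppm brains 1 to 4 and 27943397, 28344410, 28163329 and 22916434 in F1 50 ppm brains 1 to 4, and 3 counts correspond to between 0.0980 and 0.132 CPM, a floor that covers counting error only. Brains are numbered in the order of deposition, and the numbers pair nothing. Replicates of a dose differed by more than sampling noise (chi-square per degree of freedom between 8.67 and 21.1 over 12 pairs). Gene lengths and positions came from GENCODE for GRCm38, with the longest transcript as an alternative length. Genes are named if they belong to the family, to a list of partners, neighbours or cell type markers, lie nearest to a *Kank* gene, or are among the 5 most like a *Kank* gene with a mean of at least 1 CPM. Members and lists were chosen with earlier results of these data known. Some single genes are left out of the lists and the text. The code was tested on simulated counts. Figures and tables were made with Python 3.11.15, numpy 2.4.6, scipy 1.17.1 and matplotlib 3.10.9.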

Additional observations from a re-analysis of the deposited data

Results flagged for a closer look

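Of 124 groups of 4 brains examined (each dose, for the *Kank* genes, their partners and neighbours and the marker sums), 6 held a brain whose gap to the nearest other brain took up an unusually large part of the range of the group (Dixon's ratio above its 95% critical value), where chance gives about 1 in 20. None of the *Kank* levels was among them. For partners, these were *Erc1* in F1 0 ppm brain 2 (266.1 CPM, the next brain at 303.3), *Erc2* in F1 50 ppm brain 1 (295.7 CPM, next 322.8), *Clasp2* in F1 50 ppm brain 1 (452.5 CPM, next 489.3) and *Arfgef1* in F1 0 ppm brain 3 (118.5 CPM, next 151.3). For neighbours, it was *Ndufa7*, beside *Kank3*, in F1 0 ppm brain 3 (40.49 CPM, next 36.16). Among the marker sums, choroid plexus in F1 0 ppm brain 2 stood at 1236 CPM, the next brain at 589.9, with *Ttr* the most abundant gene. In that brain *Kank4* was at its lowest, 3.91 CPM, and *Kank1* at its highest among controls, 18.2 CPM.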

How the results depend on the processing

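The *Kank1* log2 fold change moved by less than the spread between brains in all 14 alternatives (0.40 to 0.52), as did those of *Kank2* (-0.04 to 0.09), *Kank3* (-0.21 to -0.05) and *Kank4* (-0.04 to 0.16) in 12 alternatives each. *Kank3* above *Kank2* and *Kank4*, and *Kank2* above *Kank4*, pairs that were chosen after seeing the data, kept their calls with the longest transcript as length and with each brain left out. *Kank2* minus *Kank1*, given without a test, turned from 0.03 to -0.05 with the longest transcript. It also turned to -0.07 without F1 0 ppm brain 1 and to -0.01 without F1 0 ppm brain 2. The count of genes called, 4, became 22 in DESeq2, 52 without the filter, 2 with at least 10 counts in 4 libraries, 2 on the C genome and, in a combination chosen after seeing the data, 21 in DESeq2 on the C genome, and lay between 2 and 20 with a brain left out. The count of marker genes called, 1, became 6 in DESeq2, 12 without the filter, 0 with at least 10 counts, and 0 to 5 with a brain left out. The cause was not tested. Partner and neighbour counts were 0 in all 12 alternatives. Ranking likeness by Spearman's rank correlation kept 3, 3, 3 and 1 of 5 genes for *Kank1* to *Kank4*, in lists that ties lengthened to 7, 11, 40 and 16. No paired analysis was possible because the brain numbers follow the order of deposition and pair nothing. *Kank4*, with 105 to 183 counts per brain, had the widest error of the family (SE 0.17) and a spread between brains of 0.26 (SD, log2 CPM).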
